A study of Mus musculus with 117 samples.

Results

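The bins described here are the 200-bp pieces of the mouse autosomes in which hepatocytes of the inbred strain 129S1/SvImJ carried a chromatin state that no other strain of the study carried. The genome of each of 9 strains had been divided into 14 numbered states. A bin counted as private when the other 8 strains (C57BL/6J, DBA/2J, A/J, NZO/HlLtJ and NOD/ShiLtJ, and the wild-derived WSB/EiJ, CAST/EiJ and PWK/PhJ) shared 1 state and 129S1/SvImJ had another. This held for 104835 of 12313718 bins on autosomes 1 to 19, which is 0.851% of them, and these bins formed 43612 uninterrupted runs of a single change. In every strain the cells came from the livers of female mice at 12 weeks of age, with no treatment or engineered allele named in the labels. Each strain had 13 libraries: chromatin immunoprecipitation for H3K4me1, H3K4me3, H3K27ac and H3K27me3 in 3 mice, and 1 input. All libraries of a strain were merged into 1 segmentation, so the states carry no replicate error, their read depth is unknown, and every comparison between strains rests on 9 values. A mark carried by few cells and a weak mark carried by all of them cannot be told apart in such bulk data.

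Chromatin states summarise which histone marks occur together. H3K4me3 is known from active gene starts, H3K4me1 from enhancers, H3K27ac from active starts and enhancers, and H3K27me3 from genes silenced by Polycomb. The sources used here do not say which marks each number stands for, so states are named by number and by where they lay. In 129S1/SvImJ, 66.9% of state 3 bins and 18.3% of state 1 bins lay within 1 kb of a protein-coding gene start, against 2.25% of all autosomal bins. States 1 and 3 made up 47.5% and 37.0% of the bins within 1 kb of the starts of a list of hepatocyte-expressed genes. Around developmental regulators, which are off in liver, states 13, 10 and 12 made up 53.4%, 24.0% and 11.2%. State 14 covered 75.6% of the autosomes. At the starts of 8 hepatocyte markers, among them Alb and Apoa1, 84.5% of bins were in states 1 to 3. At the endothelial, Kupffer cell and leukocyte, stellate and bile duct marker starts the share was 9.09% to 14.1%. None of the 8 hepatocyte marker starts held a private bin, against 7.77% of all protein-coding genes.

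The clearest private difference lay on chromosome 7 at Cyp2b13 and Cyp2b9, members of the cytochrome P450 2b family of drug- and steroid-metabolising liver enzymes. Their promoters are printed here with that of the neighbouring family member Cyp2b10 and with that of Ugt1a1, the bilirubin-conjugating glucuronosyltransferase, whose start also held private bins. Each sequence runs from 250 bases before to 50 bases after the start on the plus strand (RefSeq, build GRCm38.p6), and capitals mark CG dinucleotides, which read the same on both strands.
Cyp2b9, chr7:26173159-26173458: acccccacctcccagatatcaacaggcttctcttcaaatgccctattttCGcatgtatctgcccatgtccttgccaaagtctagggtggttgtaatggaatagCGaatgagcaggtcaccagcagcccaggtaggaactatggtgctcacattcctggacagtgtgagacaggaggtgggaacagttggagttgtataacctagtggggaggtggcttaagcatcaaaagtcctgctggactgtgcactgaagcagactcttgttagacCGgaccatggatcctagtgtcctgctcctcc
Cyp2b13, chr7:26061245-26061544: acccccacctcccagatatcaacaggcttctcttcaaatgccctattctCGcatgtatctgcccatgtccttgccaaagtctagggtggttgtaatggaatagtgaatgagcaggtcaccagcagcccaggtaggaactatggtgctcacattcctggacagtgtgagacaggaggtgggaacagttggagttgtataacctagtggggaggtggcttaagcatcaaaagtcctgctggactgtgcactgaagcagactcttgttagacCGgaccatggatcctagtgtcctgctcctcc
Cyp2b10, chr7:25897408-25897707: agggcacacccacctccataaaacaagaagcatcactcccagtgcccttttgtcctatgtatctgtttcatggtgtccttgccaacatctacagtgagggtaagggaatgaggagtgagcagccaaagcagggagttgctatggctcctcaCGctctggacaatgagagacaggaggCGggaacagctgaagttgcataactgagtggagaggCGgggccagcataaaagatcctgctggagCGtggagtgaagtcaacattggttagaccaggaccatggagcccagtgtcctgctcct
Ugt1a1, chr1:88211709-88212008: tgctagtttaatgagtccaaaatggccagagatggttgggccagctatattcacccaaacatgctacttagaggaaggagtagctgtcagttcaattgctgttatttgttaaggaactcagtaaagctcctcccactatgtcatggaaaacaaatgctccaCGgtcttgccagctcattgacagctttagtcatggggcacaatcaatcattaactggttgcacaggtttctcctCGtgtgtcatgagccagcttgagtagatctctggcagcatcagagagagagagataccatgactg
The Cyp2b9 and Cyp2b13 promoters were identical at 298 of 300 positions. All 4 were poor in CG dinucleotides, with 3, 2, 4 and 2 copies in the order printed. The median over 20085 starts of autosomal protein-coding genes was 14, and 57.9% of those starts had 10 or more. Reads from near-identical copies can be placed at the wrong one, so which of Cyp2b9 and Cyp2b13 a state belongs to is uncertain in every strain.

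In 129S1/SvImJ all 11 bins within 1 kb of the Cyp2b9 start were in state 14, and so were all 11 around the Cyp2b13 start. In each of the other 8 strains all 11 bins at both starts were in states 1 or 3, the states of hepatocyte-expressed starts. Because the mix of 1 and 3 varied among those strains, only 6 of the 11 Cyp2b9 bins and 5 of the 11 Cyp2b13 bins met the private rule: 5 changed from 1 to 14 at Cyp2b13, while at Cyp2b9 4 did so and 2 changed from 3 to 14. Across the Cyp2b13 body (chr7:26061388-26096197), 174 of 175 bins were in state 14 in 129S1/SvImJ. The other strains had 6 to 86 there, with a median of 9.0, and CAST/EiJ had the most. Across the Cyp2b9 body (chr7:26173350-26210661), 174 of 188 bins were in state 14 in 129S1/SvImJ, and the remaining 14 were in state 4. PWK/PhJ had 57 such bins and the other 7 strains had 0. At both bodies 129S1/SvImJ lay above each of the other 8 strains, but the genes were picked for their difference, so this is no test. The share of all gene bodies that set 129S1/SvImJ apart in this way is not given here.

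The difference reached beyond the 2 genes. When bins in which 129S1/SvImJ alone was in state 14 were joined across gaps of up to 20 kb, the region with most of them was chr7:25982201-26224800, with 533 such bins in 242.6 kb, and the next region anywhere on the autosomes had 42. State 14 covered 98.3% of it in 129S1/SvImJ. In the other 8 strains it covered from 23.8% in C57BL/6J to 41.5% in PWK/PhJ, with a median of 27.5%. States 1 to 3 covered 0% in 129S1/SvImJ and 30.4% to 46.5% elsewhere. The longest single stretch of state 14 inside the region was 92000 bp in 129S1/SvImJ, and 8200 to 14800 bp in the others. This region was picked for its difference, so these values describe it and were not tested. Of 291 autosomal bins in which 129S1/SvImJ was in state 13 or 14 and every other strain in state 1, 2 or 3, 226 (77.7%) lay here.

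**Figure D1:**
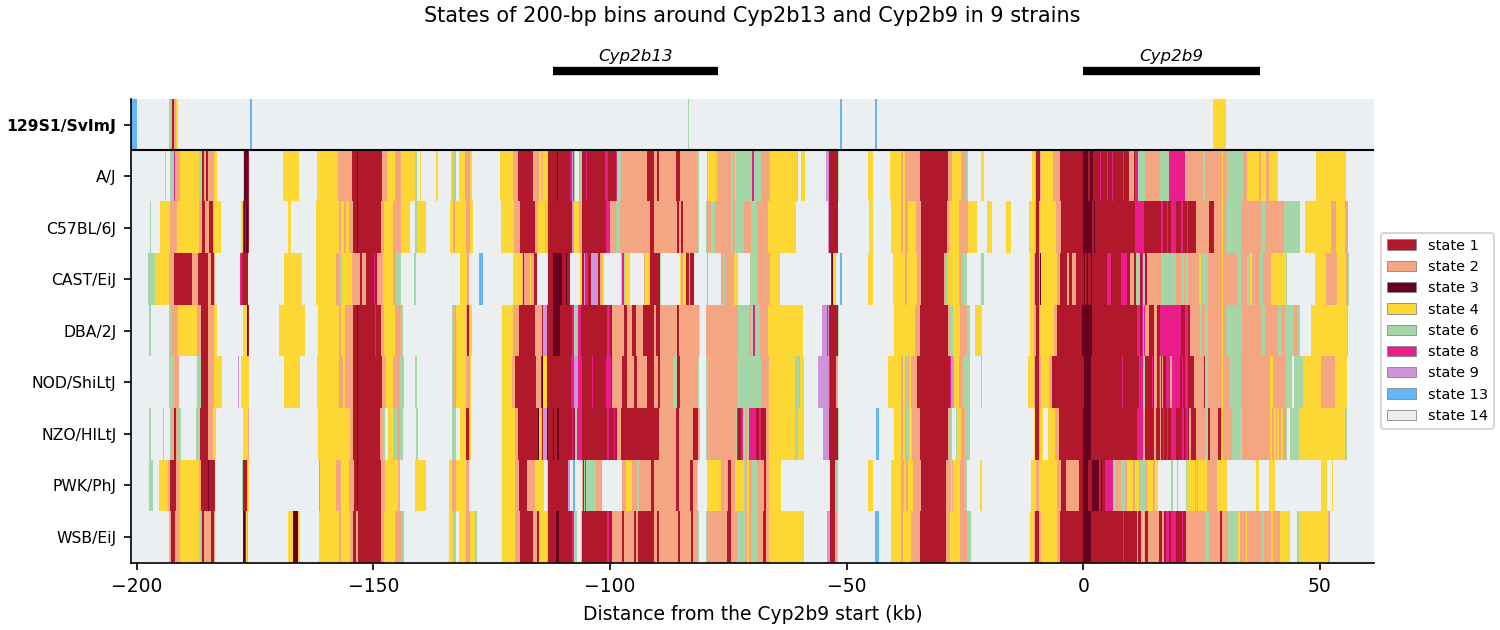
States of 200-bp bins (colours) in 9 strains (rows) against the distance from the Cyp2b9 start in kb; black bars above mark the annotated gene bodies. The 129S1/SvImJ row is in state 14 almost throughout, while the other 8 rows show states 1, 2, 3, 4, 6, 8 and 9 over both genes and between them.

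Of the region's 137 private bins, 68 went from state 1 to 14, 53 from 4 to 14 and 9 from 2 to 14. Its longest private run, chr7:26139201-26144000, was 4800 bp of state 1 turned to state 14 in the stretch between the genes, 29350 bp from Cyp2b9. It was the longest run on the autosomes among changes other than 14 to 13, 14 to 4, 14 to 6 and 13 to 14, and no other strain had state 14 on its flanks. At the start of the neighbouring Cyp2b10 all 11 bins were in state 1 in 129S1/SvImJ, as in A/J, C57BL/6J, CAST/EiJ, NZO/HlLtJ and WSB/EiJ. Within the Cyp2b10 body, however, 54 of 146 bins were in state 4 in 129S1/SvImJ and 3 to 48 in the other strains. At Cyp2a4, which encodes a steroid hydroxylase, all 41 bins of the body were in state 1 in 129S1/SvImJ and in 4 other strains. The segmentations hold no reads, so loss of the marks and loss or divergence of the underlying sequence in this strain cannot be told apart.

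Over the whole autosomes, such losses were rare and the private bins of 129S1/SvImJ went mostly the other way. State 14 was left in 81.9% of them (95% Wilson interval 81.7 to 82.1, counting error only) and entered in 7.18% (7.02 to 7.34). Intervals of this kind, here and below, treat bins as independent although neighbouring bins form runs, so they are too narrow. Leaving out 1 comparison strain at a time moved the share that left state 14 over 77.9% to 82.7%. In the other 8 strains, bins that left state 14 ranged from 61.3% in DBA/2J to 85.8% in WSB/EiJ, with a median of 73.6%, and bins that entered it from 6.72% in A/J to 26.1% in DBA/2J. Both values of 129S1/SvImJ fell within these ranges (exact permutation test of 1 strain against 8, two-sided, p = 0.667 and 0.333; adjusted p = 1.0 for both over 12 measures). With 9 strains the smallest p this exact test can give is 0.111, so it cannot reach 0.05. These shares and the number of private bins are also made from the states that chose the bins. Their p-values only describe where 129S1/SvImJ stood among the 9 strains. By number of private bins 129S1/SvImJ was rank 6 of 9: the others ranged from 0.647% of bins in C57BL/6J to 4.56% in PWK/PhJ, with a median of 1.43% (exact p = 0.556, adjusted p = 1.0).

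Of 182 possible changes of state 96 were seen, and 5 of them held 90.4% of the private bins. The most frequent was 14 to 13, with 50880 bins (48.5%), followed by 14 to 4 with 25836 (24.6%), 14 to 6 with 7969, 13 to 14 with 6311 and 6 to 2 with 3808. The share of 14 to 13 lay inside the range of the other strains, 34.5% to 73.0%. The share of 14 to 4 was exceeded by C57BL/6J alone, at 25.9%, and the other 7 strains had less, down to 3.96% in PWK/PhJ. The share of 6 to 2, 3.63%, lay above all 8 other strains, which had 0.256% to 1.78%.

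**Figure D2:**
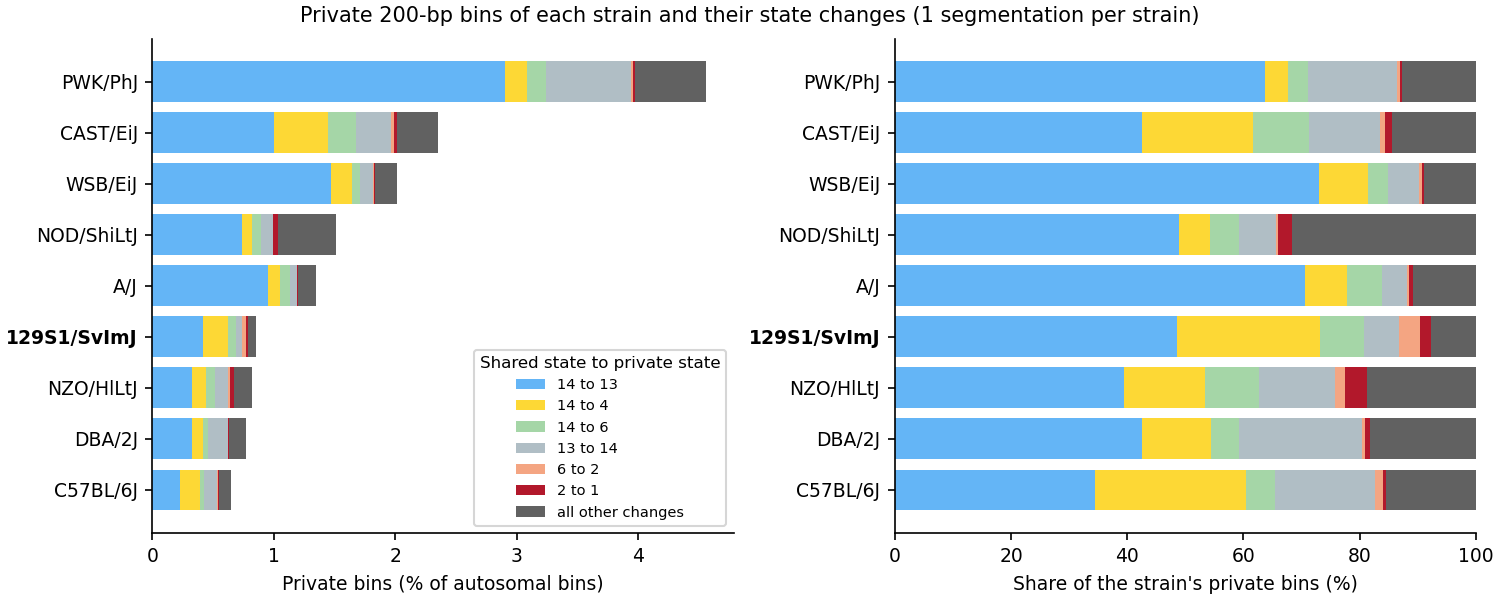
Left, private bins of each strain as a percentage of autosomal bins; right, the same bins as 100%; colours give the shared state and the private state. The 129S1/SvImJ bar (bold) ranks 6 of 9 in length, with 24.6% of it from 14 to 4 and 3.63% from 6 to 2.

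Several exchanges were one-sided in 129S1/SvImJ. State 14 turned to 4 in 25836 bins and 4 turned to 14 in 349, so 98.7% of that exchange ran in 1 direction, against 69.4% to 96.5% in the other strains. Of the exchange between states 6 and 2, 97.9% ran from 6 to 2, against 14.4% to 72.0%. Of that between 8 and 1, 88.6% ran from 8 to 1, against 4.28% to 72.8%. In these 3 exchanges 129S1/SvImJ lay outside the range of the other 8. For 2 to 1 the value was 82.8%, below the 93.1% of NZO/HlLtJ. The state totals moved alike: 129S1/SvImJ had the highest autosomal share of state 1 among 9 strains (2.82%, others 2.28% to 2.81%) and the lowest share of state 6 (2.24%, others 2.33% to 3.04%), and rank 2 of 9 for states 2 and 4. The part of these whole-genome shifts in the private bins was not tested.

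Read by the shared state, the rate of private bins was 0.673% where the other strains shared state 1, the lowest of the 9 strains (others 1.69% to 7.70%). It was also the lowest of 9 for shared states 4 (3.60%, others 3.69% to 23.1%) and 13 (2.18%, others 2.30% to 21.4%). The nearest strains were close, C57BL/6J for state 4 and A/J for state 13. For shared state 6 it was 9.30%, rank 4 of 9, and for shared state 8 it was 7.72%, also rank 4.

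**Figure D3:**
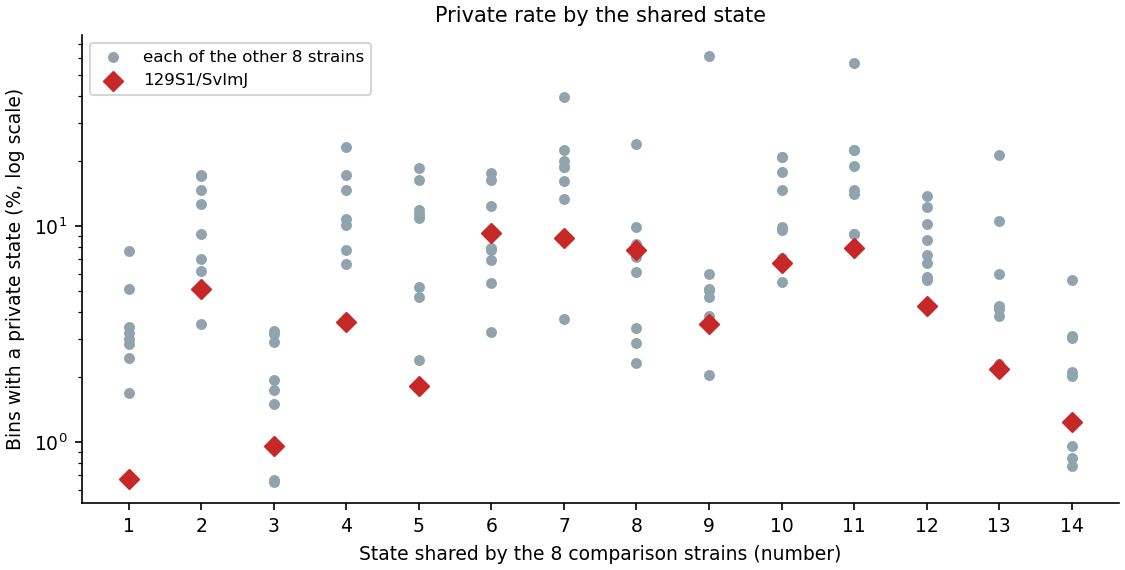
Percentage of bins with a private state (log axis) against the state shared by the 8 comparison strains. The red diamonds of 129S1/SvImJ lie below all grey points at states 1, 4, 5, 11, 12 and 13 and among them elsewhere.

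Private runs were short. Their median length was 400 bp and their mean 481 bp, 47.4% were a single bin, and the longest measured 7800 bp. The longest run of the other strains ranged from 7600 bp in C57BL/6J to 20800 bp in PWK/PhJ (exact permutation p = 0.444, adjusted p = 1.0). Runs of at least 2000 bp held 9.45% of the private bins, below the 9.52% to 37.8% of the other strains. Length went with the kind of change. Runs from 14 to 4 averaged 675 bp and runs from 14 to 13 averaged 568 bp, while runs from 14 to 6 averaged 254 bp and were a single bin in 82.7% of cases. Exchanges between states 1 and 3 were almost all single bins, 91.8% for 1 to 3 and 96.7% for 3 to 1.

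**Figure D4:**
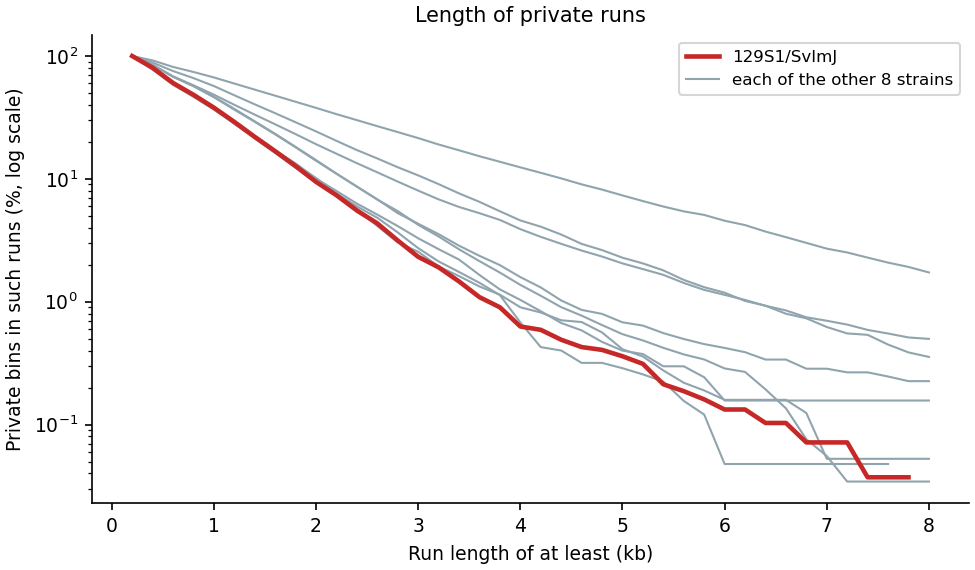
Percentage of private bins (log axis) in runs of at least the length on the x axis in kb, for 129S1/SvImJ (red) and each other strain (grey). The red line starts at 100%, passes 9.45% at 2 kb and ends at 7.8 kb.

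Most private bins lay in border runs, meaning runs that touched their new state in another strain. In 70.8% of the private bins (70.5 to 71.0) the run's new state was present directly next to it in at least 1 other strain. The other strains had 56.2% to 74.1% (exact permutation p = 0.778, adjusted p = 1.0). Whether 129S1/SvImJ itself carried that state in the adjoining bin was not part of the rule, so a shifted border was not tested. At least 5 other strains had it there for only 3.43%. Changes from 14 to 2 differed from this: just 4.67% of their 407 bins touched state 2 in another strain, and of the 480 ends of those runs 39.6% bordered state 4 in 129S1/SvImJ itself, 31.9% state 2 and 7.08% state 14. Isolated runs numbered 12275 and averaged 500 bp, against 473 bp for the 31337 border runs.

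The 10 longest runs, with ties 11, all left state 14, 9 of them for state 4 and 2 for state 13. The longest, chr8:4295601-4303400, lay in Elavl1, which encodes an RNA-binding protein that stabilises messenger RNAs. State 4 covered 36.5% of the Elavl1 body in 129S1/SvImJ and 0% to 9.36% in the other strains, with a median of 4.68%. The second, chr7:16345201-16352400, lay in Sae1, a subunit of the SUMO-activating enzyme, where state 4 covered 28.9% of the body against 2.95% to 13.3%. The third, chr2:71880001-71886600, lay in Pdk1, a kinase that inhibits pyruvate dehydrogenase, with 33.1% against 0.649% to 20.1%. In Vnn1, the pantetheinase gene, the run chr10:23899401-23905200 took most of the gene: 29 of its 54 bins were private, and state 4 covered 64.8% of the body against 0% to 12.96%. Further runs of this kind lay in Zfp609, Khdrbs3, Acad10 (a gene of the acyl-CoA dehydrogenase family) and Slc10a2 (the apical bile acid transporter), and 10926 bp from Gadd45g. In each gene body for which values are given, 129S1/SvImJ lay above the other 8 strains, but the genes were chosen by their private runs, so this is no test.

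Of the 2 runs from 14 to 13, chr12:73096001-73101400 overlapped the lower-coordinate end of Six4, a homeobox gene annotated from 73099609, and reached beyond it. The other, chr13:17078001-17083200, lay in Sugct. State 13 covered 67.1% of the Six4 body in 129S1/SvImJ and 0% to 32.9% elsewhere, with a median of 14.4%. State 13 gains were also the bulk of the private bins in the bodies of Grid1, Dlgap1 and Sugct, which are among the genes with most of them. Grid1, a glutamate receptor subunit of neurons, had 309 private bins of 3817, of which 303 changed from 14 to 13, and state 13 covered 23.4% of its body against 3.30% to 15.1%. Dlgap1, a scaffold protein of synapses, had 193 of 4263 bins, 178 of them from 14 to 13, and Sugct had 135, 120 of them from 14 to 13. Other genes with many were Prkg1 (130), Npas3 (118), Dlg2 (115), Slc24a3 (109), Lsamp (105) and Cdh13 (101), whose kinds of change are not reported here. All the genes named for their private bins in the body are very long. In Lsamp and Dlg2 the private share of the body was 0.956% and 1.17%, close to the 1.00% over all gene bodies. In Grid1 it was 8.10%.

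Private bins were spread over all autosomes, from 0.708% of bins on chromosome 10 to 1.16% on chromosome 19. Of 2473 windows of 1 Mb only 69 had none, and the 24 densest held 4.39% of the private bins (other strains 3.58% to 6.21%). The densest, chr14:35000001-36000000, had 273 private bins, 264 of them from 14 to 13, and covers the higher-coordinate end of Grid1. It was dense in another strain too, with up to 4.74% private bins. Further dense windows on chromosome 14 held multi-copy predicted genes, and a different one held the ribonuclease genes Ear2 and Ang6. In chr7:128000001-129000000 209 of 228 private bins went from 14 to 13, across the integrin genes Itgam and Itgax, which encode myeloid cell adhesion receptors. State 13 covered 54.2% of the Itgax body in 129S1/SvImJ and 0% to 5.61% elsewhere, and 32.9% of the Itgam body against 0% to 9.29%. These 2 genes are on the Kupffer cell and leukocyte list. None of the 23 listed starts held a private bin, against 7.77% of all protein-coding genes. Itgam and Itgax were described here after their values had been seen.

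By position, 2.43% (2.34 to 2.53) of the private bins lay within 1 kb of a protein-coding gene start, 47.0% in gene bodies and 47.4% more than 5 kb from any such gene. Among all bins with a state shared by the other 8 strains the shares were 1.88%, 38.0% and 57.4%. The other strains' private bins overlapped these values (exact permutation p = 0.889, 0.333 and 0.556; adjusted p = 1.0 for each). Position differed more by the kind of change. Of bins that went from 14 to 4, 65.6% lay in gene bodies, and of those from 14 to 13 29.9% did, while 36.3% of all bins in shared state 14 did. Of bins that went from 6 to 2, 88.0% lay in gene bodies, against 79.2% of all bins in shared state 6. Bins that went from 1 to 3 lay within 1 kb of a start in 56.1%, against 24.2% of all bins in shared state 1, and those from 13 to 10 in 31.3%, against 4.35% in shared state 13. For 3 to 1 the share was 80.2%, below the 88.4% of shared state 3, and for 8 to 1 it was 23.8%, against 19.7% of shared state 8.

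At least 1 private bin lay within 1 kb of the start of 1605 of 20665 protein-coding genes, which is 7.77%. The other strains touched 1577 (C57BL/6J) to 4045 (PWK/PhJ) genes. In 1114 of the 1605 genes (69.4%) it was 1 bin only. By number of genes, the most frequent changes were 8 to 1 (232 genes), 3 to 1 (216), 14 to 13 (216) and 1 to 3 (179). Starts whose own bin went from 14 to 13 had a median of 2.0 CG dinucleotides in 300 bases (n = 37), equal to the 2.0 of all starts in shared state 14. Starts whose own bin went from 3 to 1 had a median of 19 (n = 31), against 25 for all starts in shared state 3.

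At least 50% of the window was private in 19 genes (0.0919%). The windows with most private bins were those of Mtfr1 and Tapt1, with 11 bins each, and Gm8271, Cyp2c54 and Gys2, with 10 each. Gm45521, Tas2r119 and Tanc1 followed with 9, and Adcy6 and Catsperg1 with 8. Gys2, the liver glycogen synthase, changed from 14 to 4 in 10 bins: at its lower-coordinate end, 11 of 11 bins were in state 4 in 129S1/SvImJ, and the other strains had 10 or 11 in state 14. The start is not placed by the reference for Gys2, Mtfr1, Tapt1, Cyp2c54 and Adcy6, so both gene ends were searched and the private bins may lie at the 3′ end. At Gys2 the 11 bins of the opposite end were in states 1 to 3 in 129S1/SvImJ. In the other strains 10 or 11 of the 22 Gys2 bins were in these states. At Cyp2c54 11 of 22 bins were in states 1 to 3 in every strain. Cyp2c54, a P450 of the arachidonate-metabolising 2c family, had 9 bins from 14 to 4 and 1 from 1 to 3. It belongs to a cluster of similar genes, and its mapping is uncertain too. The taste receptor Tas2r119 and the multi-copy gene Gm8271 changed from 14 to 13, and Gm45521 from 4 to 14 in 9 bins.

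States 1 to 3 were lost to 13 or 14 at 5 genes (0.0242%), counting both gene ends where the start is not placed. These were Cyp2b9, Cyp2b13 and, with 1 such bin each, Crybb1, Cyp11b2 and Scgb2b3. Without CAST/EiJ the private bins of any change rose from 1 to 3 at Cyp11b2 and from 2 to 9 at Scgb2b3, and without single-bin runs Cyp11b2 had 0. States 1 to 3 were gained from 13 or 14 at 7 genes (0.0339%): Wdr72 with 5 bins, Gdpd3 with 4, and Defb14, Iigp1, Ly6k, Mapk3 and Myo7b with 1 each. The windows of the neighbours Mapk3 and Gdpd3 overlap, so the Mapk3 bin may be 1 of the 4 at Gdpd3. Defb14, Mapk3 and Myo7b had 0 private bins left once bins beside a border were left out. Wdr72, a gene best known from tooth enamel and kidney, had the most such bins. At its lower-coordinate end, 10 of 11 bins in 129S1/SvImJ were in state 1 and 1 in state 8. In the other strains the same 11 bins were in states 10, 12 and 13, with 6 or 7 in state 13. Over chr9:74108601-74112200, 18 bins combined states 1, 2, 3, 8 or 9 in 129S1/SvImJ with states 10 to 13 in all others, out of 58 such bins on the autosomes. At Gdpd3, a lysophospholipase D gene, 4 of 11 bins were in state 3 in 129S1/SvImJ. All 11 were in state 14 in 7 other strains, and NOD/ShiLtJ had 4 in state 9.

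The reverse replacement was seen at the lower-coordinate start of Dlgap1. There, 8 bins at chr17:69968601-69970200 were in states 10 to 13 in 129S1/SvImJ and in states 1, 2, 3, 8 or 9 in all others. They are the largest group among 74 such autosomal bins. Over both Dlgap1 start windows, 129S1/SvImJ had 13 bins in state 13, 3 in state 11, 2 in state 12 and 1 in state 10 of 22. State 13 was also found there in CAST/EiJ, with 8 bins, and in none of the other 7 strains, while states 1 to 3 held 0 bins in 129S1/SvImJ and 4 to 7 in each other strain. State 13 also covered 12.3% of the gene body in 129S1/SvImJ against 0% to 7.86%. Wdr72 and Dlgap1 in this comparison by state classes were found after the values had been seen.

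**Figure D5:**
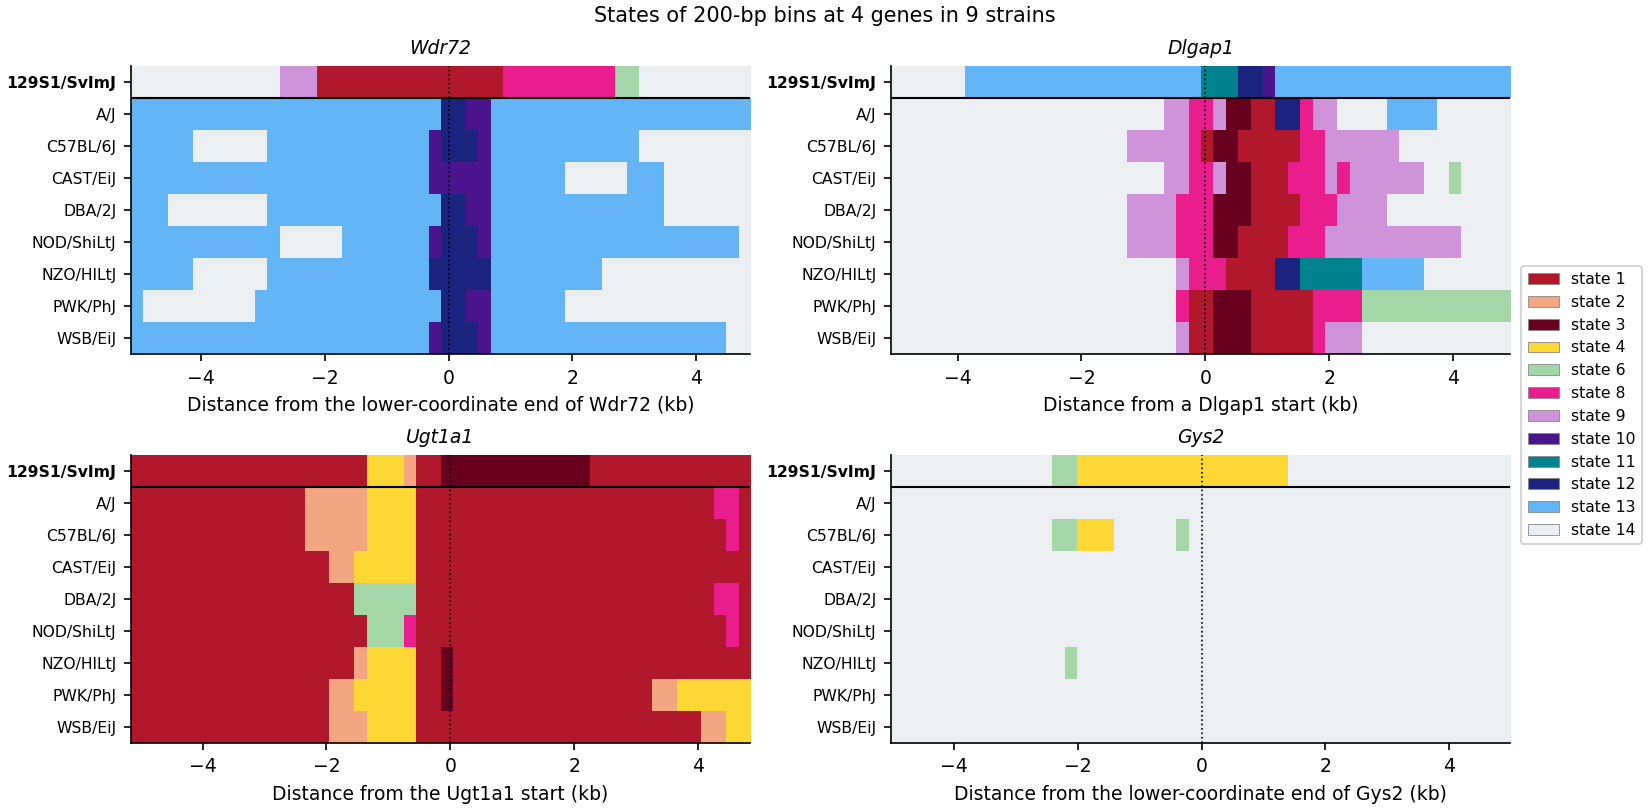
States of 200-bp bins in 9 strains within 5 kb of a reference point (dotted line) at Wdr72, Dlgap1, Ugt1a1 and Gys2. The 129S1/SvImJ row (top) shows state 1 at Wdr72 where the others are in 10, 12 and 13, the reverse kind of change at Dlgap1, a block of state 3 at Ugt1a1 and a block of state 4 at Gys2.

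Farther from genes, the largest gains of states 1 to 3 over 13 or 14 were chr4:70662601-70668600, with 28 bins and 127673 bp from Megf9, and chr1:7291801-7297000, with 23 bins and 118173 bp from Pcmtd1. Then came chr13:108290601-108294200, with 17 bins and 3492 bp from Elovl7, a fatty acid elongase. Such gains counted 601 bins in 129S1/SvImJ, rank 5 of 9, between 271 in A/J and 7565 in CAST/EiJ.

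Among the drug metabolism genes, 7 of 47 starts (14.9%) held a private bin, against 7.77% of all genes. They were Cyp2b9, Cyp2b13, Ugt1a1, Aox3, Nr1i3, Fmo5 and Cyp2c50. Apart from the Cyp2b pair, all 5 changed from 1 to 3. Ugt1a1 had the longest such change, the run chr1:88212001-88214200 of 2200 bp, which overlaps the last bases of the promoter printed above and lies inside the bodies of 9 overlapping Ugt1a genes. Of its 11 start bins, 6 were in state 3 in 129S1/SvImJ, 1 in NZO/HlLtJ and PWK/PhJ, and 0 in the other 6 strains. At Aox3, an aldehyde oxidase, 6 of 11 bins were in state 3, against 0 to 4 elsewhere, with NOD/ShiLtJ highest. At Nr1i3, which encodes the nuclear receptor CAR, 5 were, against 0 to 3. Fmo5, a flavin monooxygenase, and Cyp2c50 had 1 bin each.

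The change from 1 to 3 recurred at other liver genes, among them F5 (coagulation factor V), Cpt2 (fatty acid import into mitochondria), Arg1 (the urea cycle arginase) and Gata6. In all, 10 of the 36 touched genes of the 13 lists had it (27.8%), against 11.2% of all touched genes. Each of these 10 genes had 1 or 2 such bins, except Ugt1a1 with 5. The background was not limited to genes with shared state 1 near the start. The opposite change, 3 to 1, was seen at 4 of the 36 (Hc, Muc1, Clock and Gpam), 11.1% against 13.5% of all touched genes. Over the autosomes 56.5% of the exchange between states 1 and 3 ran from 1 to 3. The other strains had 18.3% to 93.2%. Of the lipid and bile acid genes, 3 of 57 (5.26%) were touched (Cpt2, Fgf21 and Gpam), each by 1 bin, against 7.77% of all genes. Of the glucose and urea genes 3 of 32 (9.38%) were, among them Gys2 and Arg1. The complement, coagulation and acute phase genes had 3 of 45 (6.67%, F5, Hc and C9). Of the hepatocyte-expressed genes 3 of 25 (12.0%) were, among them Trf, the transferrin gene, in which 3 bins went from 4 to 2. The circadian list had 1 of 20 (5.0%, Clock) and the hepatocyte transcription factors 2 of 31 (6.45%, Nr1i3 and Gata6). The ubiquitously expressed genes had 1 of 22 (4.55%, Tbp). None of these shares was tested.

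Of the interferon and antigen presentation genes 6 of 51 (11.8%) were touched, against 7.77% of all protein-coding genes. Irf9 and Oasl1, which encode a factor and a product of the interferon response, and Psmb9 and Tap1, which serve antigen processing, each changed from 1 to 8 in 1 bin. Psmb9 and Tap1 lie head to head and share that bin, chr17:34186401-34186600, so the 4 genes stand for 3 bins. Over all touched genes 3.43% had a change from 1 to 8. Iigp1 had 2 bins that left state 14. Of the developmental regulators 3 of 30 were touched, among them Pax7 from 13 to 10 and Lhx2 from 12 to 5. The endothelial list had 2 of 20, Erg with 4 bins from 14 to 13 and Lyve1 with 1. The stellate and bile duct list had 4 of 24 (16.7%): Dcn and Col3a1 from 13 to 11, Sox9 and Muc1. With 1 to 7 touched genes in a list, none of these shares was tested against the background.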

How the data were processed

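The deposited files give, for each strain, segments of the genome with 1 of 14 state numbers in the fourth column, a category that the authors made from all libraries of a strain and not a score or count. Per the submitters' processing notes the build is mm10 and FastQC 0.11.5 and MACS 1.4.2 were used; aligner, segmentation tool, depth and the marks of each state are not given in the sources used here. A state depends on thresholds and on how many reads a library had, so weak signal can shift a border. A joined file held the same segments and was not used. Segments were cut into 200-bp bins on autosomes 1 to 19 with Python 3.11.15, numpy 2.4.6, pandas 2.3.3 and scipy 1.17.1. The code that finds private bins was tried on simulated states: all 9095 planted private bins of 400000 were found, with 0 false ones. These states held no errors of segmentation or depth, so the simulation checks the code and not the private bins of the data. Strain values were compared by an exact permutation test, with Benjamini-Hochberg adjustment over 12 measures. State changes, chromosomes and genes are descriptions. Gene starts came from RefSeq (GRCm38.p6) for 16457 of 20665 autosomal protein-coding genes; for the other 4208 both gene ends were used. Of these 2 kinds, 6.87% and 11.3% were touched.

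The named genes were the 10 with most private bins within 1 kb of the start, those at or nearest to the 10 longest runs, the 10 with most private bins in the body, every listed gene with a private bin near its start (a few that meet these rules are not reported here), and up to 10 per direction that exchanged states 1 to 3 with 13 or 14. Of 420 listed genes 412 were found. The genes and lists were chosen with earlier results of these data known. Alternatives were other strain sets, bins, borders, runs and windows.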

Additional observations from a re-analysis of the deposited data

Results flagged for a closer look

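A gap test over the 9 strains (gap to the nearest strain against the whole range) was applied to 54 genome-wide measures, where chance alone marks about 1 in 20, or 2.7. It set 129S1/SvImJ apart in 1 of them, the share of private bins that changed from state 6 to 2. That share was 3.63%, with the next strain, NZO/HlLtJ, at 1.78%. It is made from the states that chose the bins, so this mark is a description only. Loci picked for their difference were not put to the gap test. Among the other strains, PWK/PhJ stood apart in its share of private bins, 4.56% with the next strain at 2.35%, and in the number of bins where it alone was in state 14, 171221 with the next at 64619. PWK/PhJ also stood apart in the rate of private bins in shared states 8 (23.9%), 9 (61.3%), 11 (56.8%), 13 (21.4%) and 14 (5.61%). NZO/HlLtJ had a median run length of 200 bp, where every other strain had 400 bp.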

How the results depend on the processing

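No paired analysis was possible because each strain's segmentation merges its mice. Depth is unknown, so weak states cannot be bounded. Leaving out each of the other strains in turn moved the share of private bins over 0.971% to 1.10%, bins that left state 14 over 77.9% to 82.7%, bins that entered it over 6.97% to 10.3%, the mean run over 483 to 498 bp, border bins over 72.9% to 75.2%, bins near starts over 2.30% to 2.53% and genes touched over 1858 to 2026. Leaving out a strain loosens the rule, so private bins and touched genes could only rise from the main 0.851% and 1605. The main mean run, 481 bp, and the main border share, 70.8%, also lay below these ranges. With 7 of 8 strains enough, private bins were 2.36%. With bins beside a border left out they were 0.347%, and with states 13 and 14 merged 0.408%. Without single-bin runs, 86.1% of bins left state 14, 1.66% lay near starts and 499 genes were touched; without bins beside a border, 87.9%, 1.66% and 298. Mean runs were 489 bp with 1-bin gaps bridged and 489 bp over any private bins. The private state stood on the flank in at least 5 strains for 3.43%. Windows of 500 bp and 5 kb gave 1.29% and 9.22% of bins and 929 and 4564 genes; all annotated genes gave 5.25% and 3124. At least 2 bins touched 491 genes and at least 50% of the window 19. The median run, 400 bp, was the same under all 10 alternatives run. Of 220 counts of private bins at 22 named starts, 208 stayed within 1.5 times. The other 12 were those of Cyp11b2, Defb14, Iigp1, Mapk3, Myo7b and Scgb2b3, with 0 to 9 private bins. Leaving out the Cyp2b13 and Cyp2b9 region and the use of state classes were chosen after seeing the data, and the former moved no value beyond its interval or 1.5 times.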

Other observations

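Bins in which 129S1/SvImJ and exactly 1 other strain had a state that the remaining 7 strains did not have numbered from 13556 for DBA/2J and 16472 for C57BL/6J to 26813 for WSB/EiJ and 27025 for PWK/PhJ. Bins in which 129S1/SvImJ alone was in state 14 numbered 10666, the fewest of the 9 strains, of which A/J had 19231 and PWK/PhJ 171221. Such bins outside chromosome 7 clustered in Grb14, an adaptor of insulin signalling (chr2:64914601-64921600, 25 bins), and in Cyp2c69 (chr19:39881601-39885800, 20 bins).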
